A study of Mus musculus with 3 samples.

Results

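The transcripts described here encode subunits of TFIID, the complex that recruits RNA polymerase II to promoters. They were chosen by name: *Taf4*, *Taf4b*, *Taf12*, *Taf3*, *Taf5*, *Taf6*, *Taf8*, *Taf9*, *Taf10* and *Tbp*, 10 of the 17226 genes listed in at least 1 of the 3 islet libraries. All 10 had a row in every library. Their unique molecular identifiers (UMIs, each standing for 1 captured transcript) were summed in each library over beta, alpha and delta cells, and the comparisons ask whether transcripts of the partners of Taf4 differ when *Taf4* is inactivated in beta cells.

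TFIID is built from the TATA-binding protein, encoded by *Tbp*, and a set of TBP-associated factors. Many of these factors pair through histone folds: Taf4 or its paralogue Taf4b pairs with Taf12, Taf6 with Taf9, and Taf10 with either Taf3 or Taf8, while Taf5 is a scaffold on which the pairs assemble. Taf3 also carries a PHD finger that binds trimethylated lysine on histone H3 at active promoters, and Taf9, Taf10 and Taf12 are shared with the co-activator SAGA.

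The WT library came from 300 islets of 1 mouse labelled wild type. The mutant libraries came from 300 islets each, pooled from 2 mice per library, isolated 1 week (1-week library) or 5 weeks (5-week library) after the gene was inactivated. All mice were C57/Bl6 and labelled male. In the mutants, floxed *Taf4* alleles were recombined by the Ins1::Cre-ERT2 driver, which is active in beta cells and is switched on by tamoxifen given on 3 days to adult animals. The study gave tamoxifen to mutant and Taf4 +/+ animals carrying the same driver, and its text names the single-cell control as Taf4 +/+, while the labels and methods call it only a WT mouse. Cells were assigned to the alpha class by *Gcg* alone. In the mutant libraries this class can include cells of beta origin in which *Taf4* had been recombined, so it is not a class free of recombination, and the share of such cells was not tested.

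Several properties of the libraries bear on all values below. The WT library went against its male label, with 17357 UMIs of *Xist* and 0 UMIs of 4 Y-linked genes, whereas the mutant libraries held 17 and 11 UMIs of *Xist* and 4267 and 3476 Y-linked UMIs. With 1 library per condition, genotype, animal, sex and library cannot be told apart and no test between conditions was possible. The intervals in parentheses are exact 95% intervals and cover counting error only. Beta cells had at least 20% *Ins2* and under 3% *Gcg* among their UMIs, alpha cells at least 15% *Gcg* and delta cells at least 5% *Sst*, with limits of 5%, 8% and 1.5% at 1 week in cells of at least 5000 UMIs. These rules gave 8269, 561 and 5557 beta cells in the WT, 1-week and 5-week libraries, with medians of 1656, 24764 and 3899 UMIs per cell. They also gave 2815, 175 and 3248 alpha cells and 619, 37 and 1241 delta cells. At 1 week 66.3% of barcodes met no class rule, against 2.46% in WT and 8.74% at 5 weeks. Between 2 and 33 barcodes were shared by pairs of libraries.

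Apart from *Iapp*, the classes carried the markers of their names. The summed level of beta markers without *Iapp* lay between 1163 and 2114 CPM (UMIs scaled to a class total of 1e+06) in the beta cells of the 3 libraries and between 86.2 and 692 CPM in the other classes. With *Iapp*, which is on the beta list, beta cells summed to 88453, 35339 and 61603 CPM in the WT, 1-week and 5-week libraries. Delta cells then summed to 56134, 45991 and 41128 CPM. At 1 week the full beta list was thus higher in delta than in beta cells. Alpha markers lay between 8097 and 39187 CPM in alpha cells and between 354 and 1599 CPM elsewhere, and delta markers between 7537 and 8110 CPM in delta cells and between 86.3 and 1831 CPM elsewhere. The symbol *Ero1b* was at 0 in all classes, whereas *Ero1lb*, an older symbol of the same gene, had UMIs in each. The gene was therefore not absent. Acinar transcripts moved with the libraries: in beta cells the 10 acinar markers summed to 4971 CPM in WT, 15.9 CPM at 1 week and 565 CPM at 5 weeks, and their part in the values below was not tested.

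Levels are also given after leaving out 7 hormone transcripts (*Ins1*, *Ins2*, *Iapp*, *Gcg*, *Sst*, *Ppy* and *Pyy*) from the total, because these took 68.0% of the UMIs of WT beta cells, 42.8% at 1 week and 66.5% at 5 weeks. A gene with an unaltered share of the other transcripts is therefore higher in CPM of all UMIs at 1 week. In fractions of all UMIs the median gene of beta cells was 1.13 log2 units higher at 1 week than in WT, and 0.16 higher at 5 weeks.

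The sequences that lie immediately upstream of 4 members are shown because *Taf4* is the inactivated gene, *Taf12* encodes its partner, and *Taf5* and *Taf3* had the highest ratios of mutant to WT beta cells among the members with at least 50 UMIs at 5 weeks and at 1 week. Each is the 250 bases before the RefSeq transcription start in GRCm38.p6 (mm10), written 5′ to 3′ on the strand of the gene, with capitals for matches on either strand to the TATA box (TATAAA), the core of the NF-Y site (CCAAT), the GC box bound by Sp1 (GGGCGG) or the ETS core (CCGGAA). The windows lie at chr2:179976647-179976896 (minus strand) for *Taf4*, chr4:132274125-132274374 (plus strand) for *Taf12*, chr19:47067498-47067747 (plus strand) for *Taf5* and chr2:10048610-10048859 (minus strand) for *Taf3*.
Taf4: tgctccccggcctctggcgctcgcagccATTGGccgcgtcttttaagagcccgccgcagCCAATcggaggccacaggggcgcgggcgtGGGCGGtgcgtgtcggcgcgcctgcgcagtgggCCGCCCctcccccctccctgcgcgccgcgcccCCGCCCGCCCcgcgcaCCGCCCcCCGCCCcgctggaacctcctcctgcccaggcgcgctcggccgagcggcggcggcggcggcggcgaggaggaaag
Taf12: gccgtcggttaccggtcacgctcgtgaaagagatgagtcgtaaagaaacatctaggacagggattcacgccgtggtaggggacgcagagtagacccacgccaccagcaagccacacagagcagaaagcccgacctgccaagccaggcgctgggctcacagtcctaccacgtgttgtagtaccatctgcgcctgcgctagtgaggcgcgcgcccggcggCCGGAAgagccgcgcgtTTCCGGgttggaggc
Taf5: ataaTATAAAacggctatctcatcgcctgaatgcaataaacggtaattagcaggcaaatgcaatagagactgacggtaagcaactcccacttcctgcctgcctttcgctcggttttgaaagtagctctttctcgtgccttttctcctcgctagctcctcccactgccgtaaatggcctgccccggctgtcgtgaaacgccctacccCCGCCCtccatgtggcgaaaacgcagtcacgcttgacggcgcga
Taf3: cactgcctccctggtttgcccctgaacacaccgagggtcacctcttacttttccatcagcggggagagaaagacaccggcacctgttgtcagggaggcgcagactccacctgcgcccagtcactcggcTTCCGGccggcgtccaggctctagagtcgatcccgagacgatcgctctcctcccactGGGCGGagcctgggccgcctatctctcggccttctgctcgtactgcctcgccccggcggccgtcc
The *Taf4* window held 6 matches to the GC box, some of them overlapping, and 2 to the NF-Y core. The *Taf12* window held 2 matches to the ETS core. The annotated *Taf12* gene starts at 132274355, so the transcription start used lies inside the gene. The end of this window, with the last of these matches, lies inside it too. Among 32841 windows of the same length, the GC box was present in 32.7%, the NF-Y core in 33.9%, the ETS core in 12.0% and the TATA box in 12.4%. Of 9 members with a window examined, the GC box occurred in 7, the ETS core in 3 (*Taf12*, *Taf3* and *Tbp*), the TATA box in 2 (*Taf5* and *Taf6*) and the NF-Y core in 1 (*Taf4*). The GC content was 80.4% upstream of *Taf4*, 63.2% of *Taf12*, 53.2% of *Taf5* and 66.0% of *Taf3*, against a median of 52.4% over all windows. These matches describe the sequence and were not tied to any binding or expression measurement.

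The 10 transcripts spanned a wide range of abundance, from 0.312 to 113 CPM in WT beta cells. Because the libraries tag the 3′ end of each transcript, a UMI counts a molecule whatever its length, and the levels can be set side by side without a length correction. In WT beta cells *Taf10* was the most abundant member with 1818 UMIs, 113 CPM (108 to 119), and *Taf12* followed with 188 UMIs, 11.7 CPM (10.1 to 13.5). *Taf6* had 95 UMIs, *Taf4* 75, *Taf3* 61, *Tbp* 57, *Taf5* 46, *Taf8* 29, *Taf4b* 14 and *Taf9* 5. From *Taf6* downward the counting intervals of each pair of neighbours in this order overlapped, whereas those of *Taf10*, *Taf12* and *Taf6* did not. The members other than *Taf10* summed to 35.5 CPM (32.7 to 38.6) in WT beta cells, 125 CPM (120 to 131) at 1 week and 64.5 CPM (61.5 to 67.6) at 5 weeks. *Taf10* alone made up 76.1% of the members' UMIs in WT beta cells, 58.3% at 1 week and 63.0% at 5 weeks. Its share was lowest in the 1-week library in alpha cells too, where it was 71.1%, 56.4% and 64.1%.

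**Figure D1:**
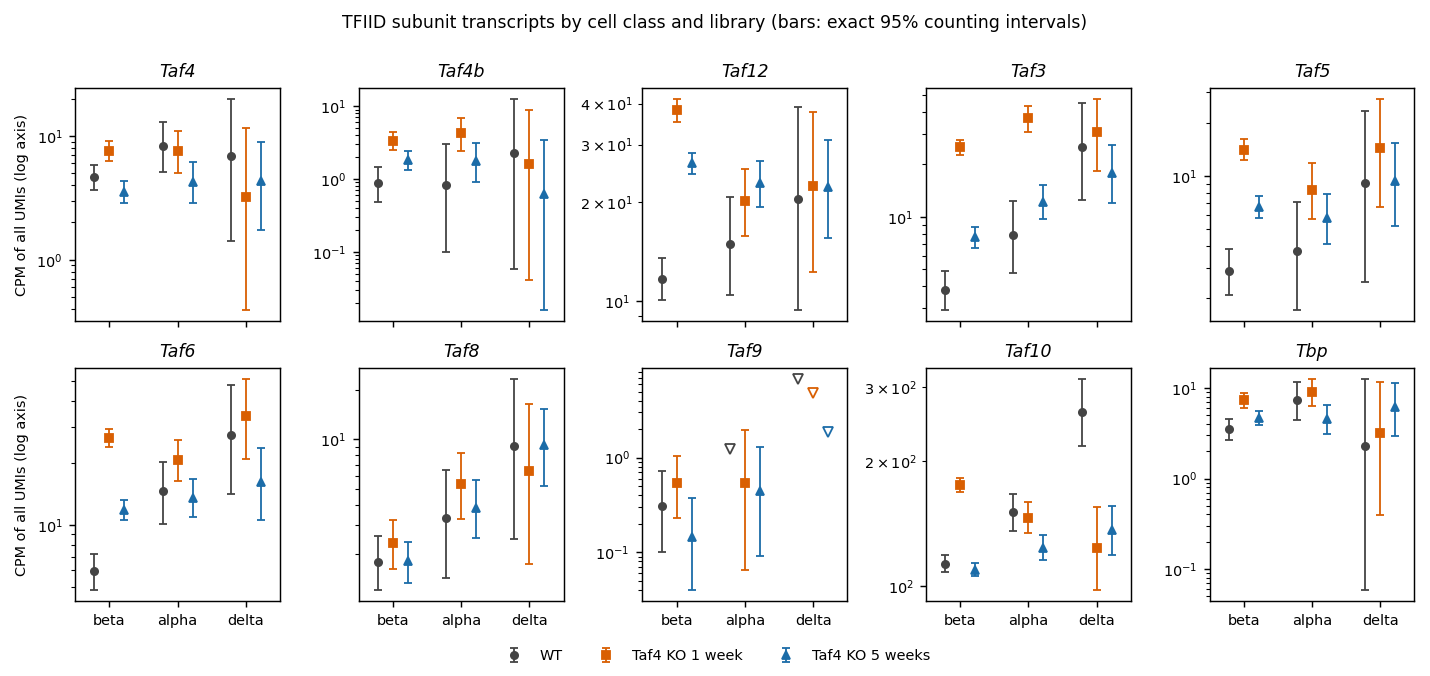
CPM of all UMIs (log axis) for each member in beta, alpha and delta cells of the 3 libraries; points are summed levels, bars are exact 95% counting intervals, and open triangles mark the upper limit that a count of 0 allows. In beta cells the WT point of *Taf4b*, *Taf12*, *Taf3*, *Taf5*, *Taf6* and *Tbp* lies below both mutant points. The WT and 5-week points of *Taf8* nearly coincide, and the *Taf4* point at 5 weeks lies below the other 2 libraries.

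Some loci limit how the counts can be read. *Taf9* (chromosome 13, 100651343 to 100656060) lies entirely within *Ak6* on the same strand, sharing 4718 bases, so its counts of 5, 8 and 4 UMIs in beta cells are uncertain. *Taf6* shares 1813 bases with *Ap4m1* on the opposite strand, *Taf3* shares 9267 and 1031 bases with the antisense non-coding RNAs *Gm31290* and *Gm13262*, *Taf10* shares 32 bases with *Ilk*, and *Taf5* shares 9 bases with *Atp5md*. *Taf4b*, which had few UMIs, shares 5273 bases with the non-coding RNA *4930543D07Rik* and 2931 and 1853 bases with the pseudogenes *Gm9474* and *Gm21055*, and *Taf3* shares 133 bases with the pseudogene *Gm31200*. The strand setting of the counting is not given in the sources used here, so reads from these pairs may not be separable.

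*Taf4* itself, the targeted gene, was measured first (chromosome 2, 179912146 to 179976646, minus strand). Beta cells held 75 *Taf4* UMIs in WT, 4.68 CPM (3.68 to 5.86), 113 at 1 week, 7.55 CPM (6.22 to 9.07), and 97 at 5 weeks, 3.52 CPM (2.85 to 4.29). Without hormone transcripts in the total, the levels were 14.6 CPM (11.5 to 18.3), 13.2 CPM (10.9 to 15.9) and 10.5 CPM (8.52 to 12.8). *Taf4* UMIs therefore remained in the beta cells of both mutant libraries, and the 5-week level was the lowest on both scales. The deleted part of the floxed allele is not given in the sources used here, and a 3′ tag outside the deleted part does not report the deletion, so these counts do not check the genotype.

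At 5 weeks the log2 ratio of *Taf4* to WT in beta cells was -0.41 (-0.86 to 0.04), and -0.48 (-0.93 to -0.02) without hormones, and on the former scale 16.8% of all genes had a lower ratio. At 1 week it was 0.69 (0.26 to 1.13) over all UMIs and -0.15 (-0.58 to 0.29) without hormones, so its direction depended on the scale. In alpha cells, 20, 28 and 29 *Taf4* UMIs gave levels of 8.31 (5.08 to 12.8), 7.52 (5.00 to 10.9) and 4.28 CPM (2.87 to 6.15) in the WT, 1-week and 5-week libraries. The alpha-cell ratio of 5 weeks to WT was -0.96 (-1.83 to -0.06) over all UMIs, and -0.79 (-1.66 to 0.11) without hormones. The beta-cell ratio minus the alpha-cell ratio was 0.55 (-0.47 to 1.54), so a larger decrease in beta cells than in alpha cells was not detectable, and the point estimate lay in the other direction. As levels in CPM of all UMIs, *Taf4* in WT was higher in alpha than in beta cells by 0.83 (0.04 to 1.56) on the log2 scale, a difference that was -0.04 (-0.83 to 0.69) without hormones. Delta cells held 3, 2 and 7 *Taf4* UMIs, too few to order the libraries.

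*Taf4b* encodes the paralogue that can take the place of Taf4 beside Taf12. Its UMIs in beta cells numbered 14 in WT, 0.873 CPM (0.477 to 1.46), 50 at 1 week, 3.34 CPM (2.48 to 4.40), and again 50 at 5 weeks, 1.81 CPM (1.35 to 2.39). Both mutant levels were higher than in WT, with log2 ratios of 1.94 (1.06 to 2.91) at 1 week and 1.05 (0.18 to 2.02) at 5 weeks, and of 1.10 (0.22 to 2.07) and 0.99 (0.11 to 1.96) without hormones. Alpha cells held 2, 16 and 12 *Taf4b* UMIs and delta cells 1 in each library.

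The share of *Taf4b* among the UMIs of the *Taf4* and *Taf4b* pair needs no scaling to total UMIs. In beta cells WT had 15.7% (8.88 to 24.98), against 30.7% (23.7 to 38.4) in the 1-week and 34.0% (26.4 to 42.3) in the 5-week library. On the log2 scale the *Taf4b* to *Taf4* ratio was 1.24 (0.24 to 2.31) higher at 1 week and 1.46 (0.46 to 2.54) higher at 5 weeks than in WT. The shares in alpha cells were 9.09% (1.12 to 29.2), 36.4% (22.4 to 52.2) and 29.3% (16.1 to 45.5), from 22, 44 and 41 UMIs. The WT share rests on 2 *Taf4b* UMIs, and the log2 ratio of *Taf4b* to *Taf4* in alpha cells differed from WT by 2.48 (0.15 to 5.80) at 1 week and by 2.02 (-0.37 to 5.37) at 5 weeks, the latter interval including 0. Among beta cells of 2000 to 4000 UMIs, where depth was alike, the shares were 17.8% (8.00 to 32.1) in WT and 22.9% (10.4 to 40.1) at 5 weeks, and the ratio differed by 0.45 (-1.35 to 2.25). The higher share at 5 weeks was thus not detectable in that band, which held 8 *Taf4b* UMIs in each library.

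*Taf12*, whose product forms a histone-fold pair with Taf4 or Taf4b, was 2.25-fold higher at 5 weeks than in WT beta cells. It had 188 UMIs in WT, 571 at 1 week, 38.1 CPM (35.1 to 41.4), and 727 at 5 weeks, 26.4 CPM (24.5 to 28.4). The log2 ratio of 5 weeks to WT was 1.17 (0.94 to 1.41), or 1.10 (0.87 to 1.34) without hormones, and it exceeded that of 95.3% of all genes. At 1 week the ratio to WT was 1.70 (1.46 to 1.95), or 0.86 (0.62 to 1.11) without hormones. On the hormone-free scale *Taf12* was higher at 5 weeks than at 1 week by 0.24 (0.08 to 0.40).

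*Taf12* UMIs per *Taf4* UMI in beta cells numbered 2.51 (WT), 5.05 (1 week) and 7.49 (5 weeks), the lowest being WT. The log2 ratio of these ratios was 1.01 (0.50 to 1.51) for 1 week against WT, 1.58 (1.06 to 2.09) for 5 weeks against WT and 0.57 (0.13 to 1.01) for 5 weeks against 1 week. In alpha cells *Taf12* UMIs per *Taf4* UMI numbered 1.80, 2.68 and 5.34, and the 5-week value exceeded WT by 1.56 (0.50 to 2.61) on the log2 scale. For 1 week against WT the difference in alpha cells was 0.57 (-0.53 to 1.66), which includes 0. In beta cells of 2000 to 4000 UMIs the 5-week excess over WT was 1.52 (0.66 to 2.39).

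**Figure D2:**
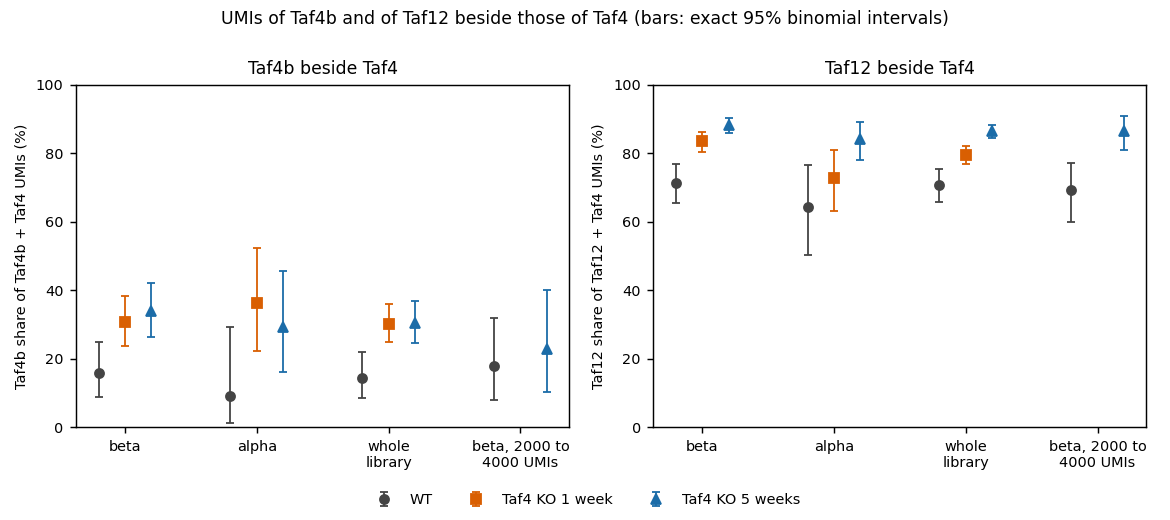
Percentage of *Taf4b* among *Taf4b* and *Taf4* UMIs (left) and of *Taf12* among *Taf12* and *Taf4* UMIs (right) in beta cells, alpha cells, whole libraries and beta cells of 2000 to 4000 UMIs; bars are exact 95% binomial intervals. *Taf12* made up 71.5% of its pair in WT beta cells and 88.2% at 5 weeks. The 1-week library has no point between 2000 and 4000 UMIs, because its class rule took only cells of at least 5000 UMIs.

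*Taf3*, *Taf5* and *Taf6* were higher in both mutant libraries, and highest at 1 week. *Taf3*, the subunit that binds methylated histone H3, had 61 UMIs in WT beta cells, 3.80 CPM (2.91 to 4.89), 376 at 1 week, 25.1 CPM (22.6 to 27.8), and 211 at 5 weeks, 7.65 CPM (6.65 to 8.76). Its log2 ratio to WT was 2.72 (2.33 to 3.14) at 1 week, above 97.5% of all genes, and 1.01 (0.59 to 1.44) at 5 weeks. Without hormones these ratios were 1.89 (1.49 to 2.30) and 0.94 (0.52 to 1.38), so the 1-week excess over WT remained and the 5-week ratio was just below 2-fold. Among members with at least 50 UMIs *Taf3* had the largest difference between the mutant libraries, with a log2 ratio of 5 weeks to 1 week of -0.94 (-1.19 to -0.70) without hormones.

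The scaffold *Taf5* had 46 UMIs in WT beta cells, 2.87 CPM (2.10 to 3.83), 211 at 1 week, 14.1 CPM (12.3 to 16.1), and 184 at 5 weeks, 6.67 CPM (5.74 to 7.71). Its ratio of 5 weeks to WT, 1.22 (0.75 to 1.72), was the highest point estimate among the members with at least 50 UMIs, although its interval overlapped those of *Taf12*, *Taf4b*, *Taf3*, *Taf6* and *Tbp*. *Taf6*, the partner of Taf9, had 95 UMIs in WT, 5.92 CPM (4.79 to 7.24), 399 at 1 week, 26.6 CPM (24.1 to 29.4), and 326 at 5 weeks, 11.8 CPM (10.6 to 13.2). The *Taf6* ratio of 5 weeks to WT was 2.00-fold to 3 digits, log2 1.00 (0.66 to 1.34), and lay just under the 2-fold limit.

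*Taf10* and *Taf8* were close to WT at 5 weeks in beta cells, and the interval of *Tbp* included 0. *Taf10*, which pairs with Taf3 or Taf8, had 3022 UMIs in 5-week beta cells, 109.6 CPM (106 to 114), against 113 CPM in WT, a log2 ratio of -0.05 (-0.13 to 0.04), or -0.11 (-0.20 to -0.03) without hormones. *Taf8* had 29 UMIs in WT, 1.81 CPM (1.21 to 2.60), and 50 at 5 weeks, 1.81 CPM (1.35 to 2.39), a log2 ratio of 0.00 (-0.68 to 0.72). *Tbp*, the DNA-binding subunit, had 57 UMIs in WT, 3.55 CPM (2.69 to 4.60), and 129 at 5 weeks, 4.68 CPM (3.91 to 5.56), a log2 ratio of 0.40 (-0.06 to 0.87). For *Tbp* it was 1.00 in 1 random thinning of each cell to 1000 UMIs, and between 0.15 and 0.53 under the other settings. Thinning left few *Tbp* UMIs: another draw held 22 in 7767 WT cells and 24 in 5352 cells at 5 weeks. The interval of *Taf10* is narrow, whereas those of *Taf8* and *Tbp*, which had fewer UMIs, include sizeable differences. At 1 week *Taf10* had 2619 UMIs, 175 CPM (168 to 182), *Taf8* 35, 2.34 CPM (1.63 to 3.25), and *Tbp* 111, 7.41 CPM (6.10 to 8.93). *Taf10* then had a log2 ratio to WT of 0.63 (0.54 to 0.71) over all UMIs and -0.21 (-0.30 to -0.12) without hormones, opposite in sign on the 2 scales.

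Relative to *Taf10*, which is the best counted member, *Taf12* and *Taf3* were higher in both mutants. The share of *Taf12* among *Taf12* and *Taf10* UMIs in beta cells was 9.37% (8.13 to 10.7) in the WT library, 17.9% (16.6 to 19.3) in the 1-week library and 19.4% (18.1 to 20.7) in the 5-week library. The share of *Taf3* among *Taf3* and *Taf10* UMIs was 3.25% (2.49 to 4.15), 12.6% (11.4 to 13.8) and 6.53% (5.70 to 7.43). The share of *Taf8* among *Taf8* and *Taf10* UMIs was 1.57% (1.05 to 2.25), 1.32% (0.920 to 1.83) and 1.63% (1.21 to 2.14), with overlapping intervals. The members of TFIID were thus not scaled by a common factor between libraries.

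Set against all genes, 4 of the 9 members with at least 50 UMIs were at or past 2-fold higher at 5 weeks than in WT beta cells (*Taf12*, *Taf5*, *Taf4b* and *Taf3*), where 7.23% of 10473 genes were, and 0 were at or past 2-fold lower, where 5.07% of genes were. The median log2 ratio of the 9 was 1.00, against 0.16 over all genes. *Taf4b*, *Taf5* and *Taf8*, with 14, 46 and 29 WT UMIs, reached the limit of 50 UMIs only together with their mutant counts, and *Taf9* did not reach it. Since *Taf4b* and *Taf5* are among the 4, these counts and medians describe the members and are not read as a difference from other genes. On the hormone-free scale 2 of 9 were at or past 2-fold higher (*Taf12* and *Taf5*, the latter admitted through its mutant counts, with 5.95% of genes), 0 were lower (5.69% of genes), and the median was 0.93 against 0.10 over all genes. *Taf4b*, *Taf3* and *Taf6* then lay between 1.91-fold and 1.98-fold, just inside the limit.

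**Figure D3:**
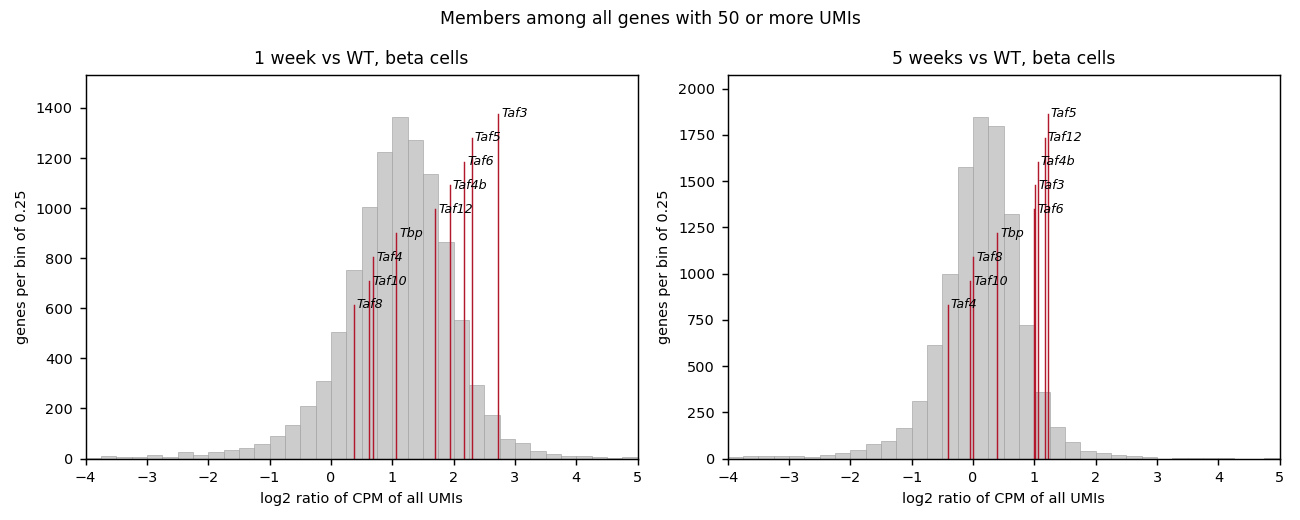
Log2 ratio of CPM of all UMIs for all genes with at least 50 UMIs in beta cells (grey bars, genes per bin of 0.25), for 1 week (left) and 5 weeks (right) against WT, with the 9 members that reached this limit as red lines whose height has no meaning and with genes beyond the axis left out of view. At 5 weeks *Taf6*, *Taf3*, *Taf4b*, *Taf12* and *Taf5* lie close together from 1.00 to 1.22, and *Taf4* lies at -0.41.

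At 1 week 6 of 9 members were at or past 2-fold higher than in WT beta cells, but so were 56.6% of 10421 genes, and 0 were lower, where 2.8% of genes were. Without hormones 4 of 9 were higher (*Taf3*, *Taf5*, *Taf6* and *Taf4b*, with 17% of genes) and 0 lower (7.96% of genes). *Taf4b*, *Taf5* and *Taf8* entered this comparison too only with their 1-week counts added, so nothing is read from the count. The median of the members was 0.86 on that scale, against 0.29 over all genes. *Taf5* and *Taf6* had hormone-free ratios of 1.46 (0.99 to 1.95) and 1.33 (1.01 to 1.67), *Tbp* of 0.22 (-0.25 to 0.71) and *Taf8* of -0.47 (-1.22 to 0.30). Among members with at least 50 UMIs in WT alone, *Taf3*, *Taf6* and *Taf12* had hormone-free intervals above the median gene at 1 week. The interval of *Taf10* lay below it, and that of *Taf4* ended at 0.29, equal to the median gene in the digits given. *Taf5* is left out here, because it entered only with its 1-week counts.

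The 1-week beta class was cut at a lower *Ins2* share than in the other libraries, and the members' levels were compared across that line. The 203 cells with 5% to 20% *Ins2* and the 358 cells with at least 20% *Ins2* had hormone-free *Taf12* levels of 66.8 CPM (58.1 to 76.5) and 66.7 CPM (60.0 to 73.9), and *Taf3* levels of 46.1 CPM (38.8 to 54.2) and 42.7 CPM (37.4 to 48.6). *Taf4* stood at 13.8 CPM (9.95 to 18.5) and 12.9 CPM (10.0 to 16.3). Over all UMIs the same cells gave 56.0 and 32.2 CPM of *Taf12*, while hormones took 16.2% and 51.7% of their UMIs.

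From 1 week to 5 weeks, 4 of 9 members were at or past 2-fold lower in beta cells over all UMIs (*Taf3*, *Taf6*, *Taf4* and *Taf5*), where 48.8% of 10767 genes were, and 0 were higher, where 2.19% were. Without hormones 0 were lower (9.52% of genes) and 0 were higher (5.95% of genes). On the latter scale *Taf5* and *Taf6* had ratios of -0.31 (-0.60 to -0.02) and -0.40 (-0.62 to -0.19), *Taf10* of 0.10 (0.02 to 0.17) and *Taf4b* of -0.11 (-0.70 to 0.49). The comparisons of 1 week and 5 weeks with WT share the WT library, and the values of each are given side by side for that reason.

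**Figure D4:**
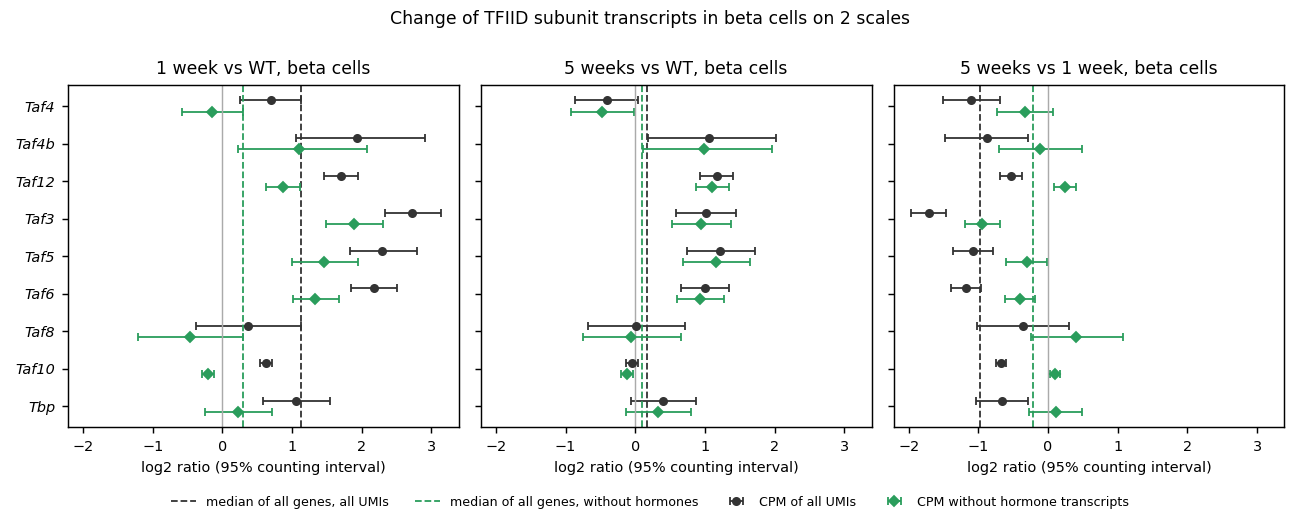
Log2 ratios of 9 members in beta cells for the 3 comparisons, over all UMIs (dark circles) and without hormone transcripts (green diamonds), with exact 95% counting intervals; dashed lines mark the median of all genes on each scale. The scales nearly coincide for 5 weeks against WT and lie apart wherever the 1-week library is involved, as for *Taf10*, at 0.63 and -0.21 for 1 week against WT.

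Depth per cell differed between the libraries, so the beta cells were also compared within bands of UMIs per cell. In cells of 2000 to 4000 UMIs (2864 in WT and 2032 at 5 weeks), *Taf12* stood at 10.5 CPM (8.37 to 13.0) and 28.5 CPM (24.4 to 33.0), *Taf3* at 3.55 CPM (2.36 to 5.12) and 9.16 CPM (6.92 to 11.9), and *Taf5* at 2.53 CPM (1.55 to 3.91) and 6.71 CPM (4.81 to 9.10). *Taf6* stood at 6.46 CPM (4.81 to 8.49) and 11.8 CPM (9.22 to 14.8). These 4 members were higher at 5 weeks within the band, with intervals that did not overlap. *Taf4* stood at 4.69 CPM (3.30 to 6.46) and 4.42 CPM (2.91 to 6.43), so the lower *Taf4* level at 5 weeks was not detectable in this band. In cells of 4000 to 8000 UMIs *Taf4* stood at 11.5 CPM (5.53 to 21.2) in 192 WT cells and 3.15 CPM (2.11 to 4.52) in 1638 cells at 5 weeks, from 10 and 29 UMIs, with intervals that did not overlap.

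**Figure D5:**
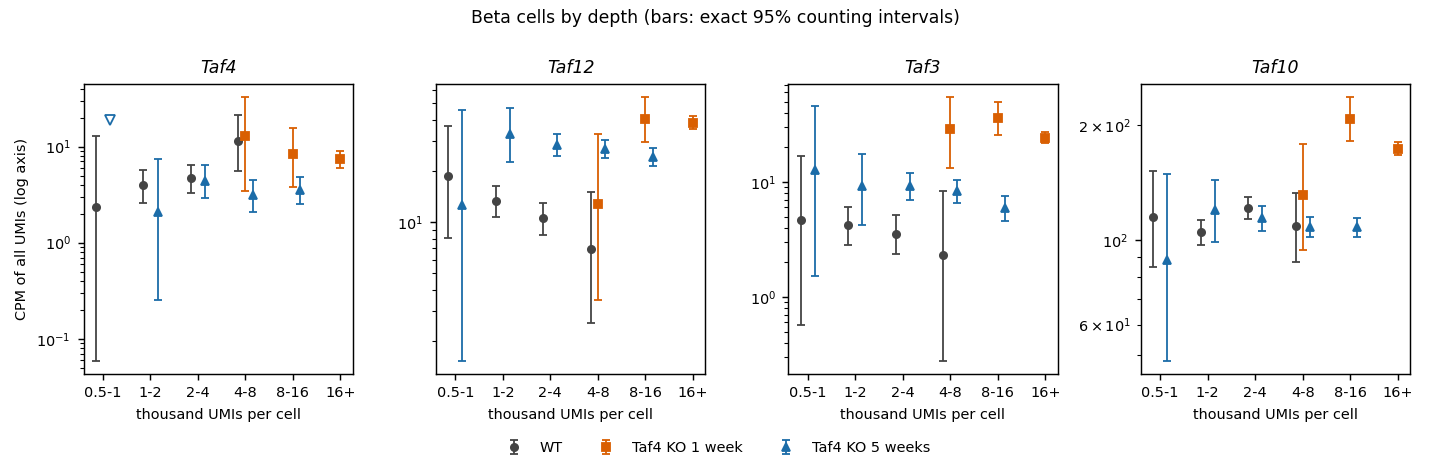
CPM of all UMIs (log axis) of *Taf4*, *Taf12*, *Taf3* and *Taf10* in beta cells by band of UMIs per cell (axis in units of 1000 UMIs); bars are exact 95% counting intervals and the open triangle marks the upper limit for a count of 0. *Taf12* at 5 weeks lies near 28.5 CPM from 2000 to 4000 UMIs per cell, above the WT value of 10.5 CPM in the same band.

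In alpha cells 4 members reached 50 UMIs for 5 weeks against WT, namely *Taf12*, *Taf3*, *Taf6* and *Taf10*. Of these 0 were at or past 2-fold higher (4.61% of 8200 genes) and 0 lower (1.39% of genes), and without hormones the counts were the same beside 7.42% and 0.879% of genes. *Taf12* had 36 UMIs in WT, 14.96 CPM (10.5 to 20.7), 75 at 1 week, 20.2 CPM (15.9 to 25.3), and 155 at 5 weeks, 22.9 CPM (19.4 to 26.8), with a log2 ratio of 5 weeks to WT of 0.61 (0.08 to 1.18). *Taf3* had 19, 137 and 83 UMIs, 7.90 CPM (4.75 to 12.3), 36.8 CPM (30.9 to 43.5) and 12.3 CPM (9.76 to 15.2). The log2 ratio of *Taf3* at 1 week to WT in alpha cells was 2.22 (1.52 to 3.00). With 19 WT UMIs it reached the limit only through its 1-week counts. *Taf3* was the only 1 of 5 members with at least 50 UMIs at or past 2-fold higher (33% of 7698 genes), with 0 lower (4.98% of genes). Without hormones the *Taf3* ratio was 1.88 (1.19 to 2.66), again the only 1 of 5 past 2-fold higher (20.9% of genes), with 0 lower (8.07% of genes), a share of members near or below that of all genes. From 1 week to 5 weeks *Taf3* was the only 1 of 7 members at or past 2-fold lower in alpha cells, at -1.59 (-1.998 to -1.18) over all UMIs (27.3% of genes) and -1.08 (-1.49 to -0.68) without hormones (10.2% of genes), and 0 were higher (6.2% and 12.1% of genes). *Taf6*, with 35, 77 and 92 UMIs, had a ratio of 5 weeks to WT of -0.10 (-0.67 to 0.51), and *Taf10*, with 362, 544 and 838 UMIs, of -0.28 (-0.46 to -0.10).

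The beta-cell ratio of 5 weeks to WT exceeded the alpha-cell ratio for *Taf6* by 1.10 (0.40 to 1.77), for *Tbp* by 1.10 (0.06 to 2.12) and for *Taf10* by 0.23 (0.03 to 0.43). Without hormones only *Taf6* had an interval above 0 among the 9 members with UMIs in all 4 sums, at 0.86 (0.16 to 1.54), while *Tbp* stood at 0.87 (-0.18 to 1.88) and *Taf10* at 0.00 (-0.20 to 0.20). For *Taf12* the difference was 0.56 (-0.06 to 1.14), for *Taf3* 0.38 (-0.54 to 1.24) and for *Taf5* 0.60 (-0.74 to 1.79), so an excess in beta cells was not detectable for these members. At 1 week the beta-cell ratio exceeded the alpha-cell ratio for *Taf12* by 0.77 (0.11 to 1.42) and for *Taf6* by 1.16 (0.45 to 1.85) without hormones.

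Delta cells held few UMIs of the members. *Taf10* had 115 in WT, 262 CPM (217 to 315), 77 at 1 week, 124 CPM (97.7 to 155), and 220 at 5 weeks, 136 CPM (119 to 156). It was lower in both mutants, with log2 ratios of -1.08 (-1.52 to -0.65) at 1 week and -0.94 (-1.28 to -0.61) at 5 weeks, and 1.82% of all genes had a lower ratio at 5 weeks. *Taf10* was the only member with at least 50 UMIs in either comparison. At 1 week it was past 2-fold lower on both scales, as were 3.97% of 2847 genes over all UMIs and 6.02% without hormones, while 22.7% and 13.8% of genes were at or past 2-fold higher. At 5 weeks it was just short of 2-fold lower on both scales, where 1.46% and 1.74% of genes were lower and 7.47% and 6.22% higher. From 1 week to 5 weeks 0 of 2 members (*Taf10* and *Taf12*) were at or past 2-fold in either direction, beside 4.14% of genes higher and 13.7% lower over all UMIs, and 5.62% and 7.56% without hormones. The WT delta cells were also the shallowest class, with a median of 622 UMIs, and their acinar markers summed to 14845 CPM, against 6.43 CPM at 1 week and 2589 CPM at 5 weeks; the part of either in the *Taf10* level was not tested. *Taf12* had 9, 14 and 36 UMIs and *Taf3* 11, 19 and 29 UMIs in delta cells, and the other members between 0 and 26.

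Counted as cells, most members were seen in few beta cells once each cell had been thinned to 1000 UMIs. *Taf12* had a UMI in 1.21% (0.979 to 1.48) of 7767 WT cells, 3.03% (1.77 to 4.81) of 561 cells at 1 week and 2.75% (2.33 to 3.22) of 5352 cells at 5 weeks. Before thinning the shares were 2.30%, 58.5% and 12.3%, in cells with median depths of 1656, 24764 and 3899 UMIs. *Taf4* was found in 0.502% (0.357 to 0.686), 0.357% (0.0432 to 1.28) and 0.430% (0.273 to 0.644) of thinned cells, without a detectable difference, and *Taf10* in 10.7% (10.0 to 11.4), 18.0% (14.9 to 21.4) and 10.5% (9.71 to 11.4). No class known to lack these genes was used as a blank, so the part of free RNA in such shares was not tested.

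The other 5 TFIID subunits were counted in the same beta cells. *Taf13*, which pairs with Taf11, had 74 UMIs in WT, 4.61 CPM (3.62 to 5.79), 443 at 1 week, 29.6 CPM (26.9 to 32.5), and 574 at 5 weeks, 20.8 CPM (19.1 to 22.6). Its ratio of 5 weeks to WT was 2.17 (1.82 to 2.54), above 99.3% of all genes. This point estimate was larger than that of any member, although its interval overlapped that of *Taf4b*. *Taf11* and *Taf7* were at 0.92 (0.70 to 1.13) and 0.78 (0.49 to 1.08), *Taf1*, the largest subunit, at 0.24 (0.00 to 0.48) and *Taf2* at -0.21 (-0.62 to 0.20). *Taf13* was thus 1 of 5 at or past 2-fold higher in beta cells, beside 7.23% of all genes, and 0 were lower. In alpha cells 3 of the 5 were at or past 2-fold higher at 5 weeks than in WT, beside 4.61% of genes, with a median of 1.01: *Taf13* at 2.13 (1.15 to 3.30), *Taf7* at 1.04 (0.49 to 1.63) and *Taf11* at 1.01 (0.57 to 1.48). All 3 had under 50 WT UMIs there, 9, 32 and 49. *Taf13* had 9, 39 and 111 UMIs in alpha cells, with WT the lowest library, whereas delta cells held 8, 6 and 20, 18.2 CPM (7.88 to 36.0) in WT, 9.65 CPM (3.54 to 21.0) at 1 week and 12.4 CPM (7.57 to 19.1) at 5 weeks, with WT the highest point and overlapping intervals.

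Lists of the surrounding machinery gave a context for these ratios at 5 weeks against WT in beta cells, where 7.23% of all genes were at or past 2-fold higher and 5.07% lower (5.95% and 5.69% without hormones). Among the paralogues 2 of 4 were compared (*Taf7l* and *Tbpl2* were not), and *Taf9b* at 0.09 (-0.21 to 0.40) and *Tbpl1* at 0.73 (0.47 to 1.01) did not reach 2-fold. Of 16 SAGA transcripts compared, from a list of 17, 0 were at or past 2-fold higher and 1 was lower, *Tada1*, an adaptor subunit, at -1.13 (-1.56 to -0.72), and their median was 0.09. The 17 general transcription factor transcripts had 4 higher and 0 lower, namely *Gtf2f1* at 1.15 (0.70 to 1.63), *Gtf2h1* at 1.03 (0.68 to 1.39), *Gtf2h3* at 1.43 (0.88 to 2.01) and *Ercc3* at 1.10 (0.58 to 1.64), with a median of 0.68. The 13 RNA polymerase II transcripts had 2 higher and 0 lower, *Polr2a*, the catalytic subunit, at 1.69 (1.46 to 1.93) and *Polr2b* at 1.00 (0.68 to 1.34), with a median of 0.08. Without hormones 3 general transcription factors and 1 polymerase transcript stayed past 2-fold. The median of the 9 members, 1.00, is not ranked against those of the lists, because *Taf4b*, *Taf5* and *Taf8* entered only with their mutant counts. Genes of the lists likewise entered on the UMIs of both libraries together. A gene with few WT UMIs could therefore enter through its mutant counts. The numbers of list genes at or past 2-fold higher describe the lists and are not read as a difference from all genes. Differences between lists were not tested.

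Likeness of pattern was measured by Pearson correlation of log2(CPM + 1) over the 9 levels (3 classes in 3 libraries), as a description without a test, since the levels share libraries and depth. Over all UMIs the genes most like *Taf4* among 9719 were *Trp53inp1* (r = 0.92), *Proscos* (0.89), *Kcnu1* (0.86), *Med20* (0.86) and *Tead1* (0.86). Those most like *Taf4b* were *Ina* (0.98), *Usp39* (0.94), *Tsr1* (0.91), *Them6* (0.91) and *Pprc1* (0.88). Without hormones no gene of the *Taf4* list recurred, its first being *Lsm5* (0.95), while *Usp39* (0.93) and *Ina* (0.92) recurred for *Taf4b*. *Taf4* and *Taf4b* rested on 374 and 147 UMIs over the 9 levels.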

How the data were processed

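Single-cell RNA-seq of live-sorted islet cells was performed with 10X Genomics Chromium 3′ libraries, 1 library per condition. The deposited tables hold unnormalised UMI counts, with genes in rows and barcodes in columns; per the submitters' processing notes the authors used bcl2fastq 2.17.1.14, Cell Ranger 3.1 and Seurat 3.1.4 with mm10. The strand setting is not given in the sources used here. In WT only, the authors removed cells with mixed hormones and doublets called by DoubletFinder and limited the library to 12000 cells; no doublet caller was run here, and cells meeting 2 class rules (2, 1 and 202) were left out. Libraries held 19472212 (WT), 23131247 (1 week) and 39408284 (5 weeks) UMIs.

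From these counts, UMIs were summed over each class and given as CPM with exact Poisson intervals; ratios have exact conditional intervals and shares exact binomial (Clopper-Pearson) intervals, all at 95% and for counting error only. A count of 0 was taken to allow 3 UMIs. A gene entered a comparison when the 2 libraries together held 50 or more of its UMIs, and 2-fold served as a limit of size, without a test. Python 3.11.15, numpy 2.4.6, scipy 1.17.1 and matplotlib 3.10.9 were used. The computation of the intervals was checked on simulated Poisson counts. These held no variation between cells, animals or libraries, so the check does not extend to such variation.

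Members and lists were chosen with earlier results of these data known. Named genes were all members, the 5 other TFIID subunits, genes of the other lists at or past 2-fold in beta cells at 5 weeks against WT, and the 5 genes most like *Taf4* and *Taf4b*; *Taf9b* and *Tbpl1* were named after their values were seen. Other totals, scalings, depth limits and class limits were tried. Gene positions and upstream sequences are from RefSeq on GRCm38.p6; the 250-base windows were available for 9 members.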

Additional observations from a re-analysis of the deposited data

Results flagged for a closer look

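*Taf10* had opposite directions in the beta and delta cells of the same libraries at 1 week against WT: the log2 ratio of CPM of all UMIs was 0.63 (0.54 to 0.71) in beta cells and -1.08 (-1.52 to -0.65) in delta cells. Each side is 1 pair of libraries, and the difference was not tested. Without hormone transcripts both ratios were below 0, at -0.21 (-0.30 to -0.12) and -1.36 (-1.79 to -0.93).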

How the results depend on the processing

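No paired analysis was possible because each condition is a single library. The values below are medians of the members' log2 ratios unless named otherwise, and no interval was computed for a median itself. For 5 weeks against WT in beta cells the median was 1.00. It stayed within the counting interval of the middle-ranked member, *Taf6* (0.66 to 1.34), under 10 of 11 alternatives. It was 0.46 in cells of 2000 to 4000 UMIs, a setting chosen after seeing the data. *Taf12* ranged from 1.01 to 1.44 over these settings, *Taf5* from 1.01 to 1.41, *Taf3* from 0.85 to 1.37 and *Taf6* from 0.83 to 1.20. *Taf4b* ranged from 0.37 to 1.38, *Taf4* from -0.58 to -0.08 and *Tbp* from 0.15 to 1.00. The upper value for *Tbp* came from 1 random thinning. For 1 week against WT the median of 1.70 became 0.86 without hormones and 0.57 with the median of all genes set to 0. It was 1.42 with the class limits of the other libraries and 1.46 in cells with at least 20% *Ins2* (chosen after seeing the data). A single random thinning to 1000 UMIs gave 2.19, a value that rests on few UMIs. In another draw over the same cells *Taf12* kept 17 UMIs at 1 week and *Tbp* 6, so this difference was not separated from the noise of the draw. *Tbp* turned from 1.06 to -0.070 with the median of all genes set to 0. For 5 weeks against 1 week the median of -0.88 became -0.11 without hormones and 0.10 with the median of all genes set to 0. For 5 weeks against WT in alpha cells all 8 alternatives stayed within the averaged counting interval of the middle-ranked members. In delta cells all 8 stayed within the counting interval of *Taf10*, the only member compared.

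Counts of genes at or past 2-fold in either direction also moved. In beta cells 1288 genes for 5 weeks against WT became 2776 when genes with 1 UMI in each library were kept. The 6190 genes for 1 week against WT became 2598 without hormones and 2174 with the median set to 0, and the 5485 genes for 5 weeks against 1 week became 1664 and 1578. In alpha cells 492 genes became 967 with a limit of 20 UMIs and 1972 with 1 UMI in each library, and in delta cells 397 became 1148 and 2468. Settings that left fewer than 50 cells in a library were not run, a limit set after seeing the data: at least 5000 UMIs in WT beta cells (26 cells), the detected-gene and mitochondrial limits of the study at 1 week (17 cells), and at least 2000 UMIs in WT alpha (27 cells) and delta cells (1 cell). Depth limits *Taf4b*, *Taf8* and *Taf9* most, with 14, 29 and 5 UMIs in WT beta cells.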
